A study of Mus musculus with 20 samples.

Results

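The Tg-SwDI response of mice that lack miR-34a was measured as the difference in hippocampal RNA between Tg-SwDI and Non-Tg mice, all of them miR-34a-/-. It rests on 10 of the 20 libraries of the series, chosen by their labelled genotype: 5 KO Tg-SwDI mice (numbered 1, 2, 3, 5 and 8) and 5 KO Non-Tg littermate controls (numbered 1, 2, 4, 7 and 8). The other 10 libraries, 5 WT Tg-SwDI and 5 WT Non-Tg, entered the fit and are used only to set the response of KO mice beside that of WT mice. Every library came from the left hippocampus of 1 female mouse on a C57BL/6 background, about a year old and perfused with PBS before dissection. Tg-SwDI mice carried human APP with the Swedish, Dutch and Iowa mutations under a Thy1 promoter, which is active in neurons. The miR-34a deletion was constitutive and present in every cell of both groups compared, so this contrast holds the deletion fixed and varies the transgene.

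As background, the Swedish mutation raises the yield of Abeta from APP, and the Dutch and Iowa mutations lie within Abeta and favour its deposition in and around small vessels. Microglia that meet Abeta deposits engage TREM2 and its adaptor TYROBP, enlarge their lysosomes and switch on a characteristic set of genes, and part of them can enter a state marked by interferon-stimulated genes. miR-34a represses mRNAs that match its seed, and the related miR-34b and miR-449a carry the same one, so that a mouse without miR-34a keeps relatives that can read the same sites. The mature sequences shown are that of miR-34a, which was missing from both groups, and those of miR-34b and miR-449a, which were not deleted. They are from RefSeq (GRCm38.p6), 5′ to 3′, with the seed (bases 2 to 8) in capitals. miR-34a lies on chromosome 4 from 150068473 to 150068494 (+ strand), miR-34b on chromosome 9 from 51103610 to 51103632 (- strand) and miR-449a on chromosome 13 from 113037549 to 113037570 (+ strand).
mmu-miR-34a-5p: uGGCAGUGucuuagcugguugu
mmu-miR-34b-5p: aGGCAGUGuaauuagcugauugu
mmu-miR-449a-5p: uGGCAGUGuauuguuagcuggu

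Libraries held 19549622 to 21066868 counts on genes, and levels are given as CPM, counts scaled to an equal library total after TMM normalization, mouse by mouse in the order of the numbers above. Thy1, whose promoter drives the transgene, was at 709.6, 689, 744, 726 and 743 CPM in the KO Non-Tg mice and 2454, 2802, 2835, 2697 and 3318 CPM in the KO Tg-SwDI mice, without overlap (log2 fold change 1.97 ± 0.07, FDR = 2.4e-17). App was at 1644, 1629, 1708, 1592 and 1689.5 CPM in the KO Non-Tg mice and 1754, 1918, 1898, 1894 and 1529.9 CPM in the KO Tg-SwDI mice (log2 fold change 0.12 ± 0.05, FDR = 0.11), with KO Tg-SwDI mouse 8 below every KO Non-Tg mouse. Whether reads of the transgene were counted under App or Thy1 was not tested. Xist lay between 483 and 666 CPM in the 10 mice. Markers of the hippocampus were present in all 10, with Prox1, of dentate granule cells, at 99.6 to 152 CPM and Fibcd1, of CA1 pyramidal cells, at 109 to 164 CPM.

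Library composition differed between the groups in 2 ways that touch the results. Ttr, the transthyretin of the choroid plexus epithelium, was at 31.4, 277, 60.9, 152 and 85.7 CPM in the KO Non-Tg mice and 2011, 81.5, 2964, 3365 and 3554 CPM in the KO Tg-SwDI mice. KO Tg-SwDI mouse 2 lay within the KO Non-Tg range, and the other 4 KO Tg-SwDI mice lay above it. The mean log2 CPM of 15 choroid plexus genes was 2.58 higher in the KO Tg-SwDI group than in KO Non-Tg (exact two-sided permutation test, p = 0.032), and that of Ttr alone 3.94 higher (p = 0.032). In WT mice high and low Ttr occurred in both groups. Choroid plexus tissue in a dissected hippocampus cannot be told apart here from a raised level in the tissue. The second difference was in 1 library. Mitochondrially encoded genes took 14.6% of the counts of KO Tg-SwDI mouse 8, against 7.10% to 8.76% in the other 9 mice. Results are therefore given, where it matters, with the choroid plexus level as a covariate, from mouse 2 alone and without mouse 8. The fit from mouse 2 alone holds 1 KO Tg-SwDI library, so its spread is taken from the other groups and fewer changes can pass. A call lost there does not show that a gene is unchanged.

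**Figure D1:**
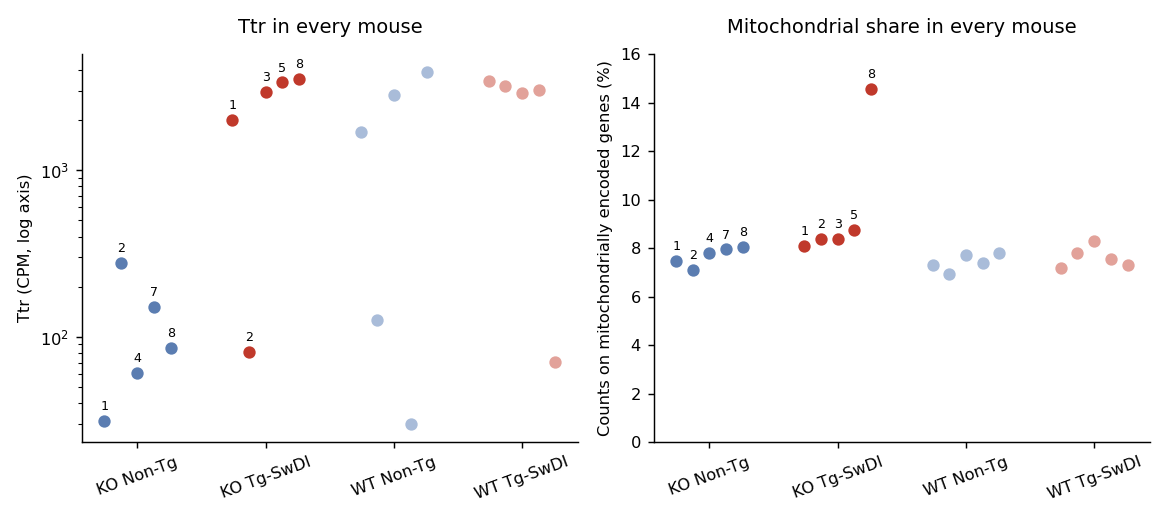
Left, Ttr in CPM (log axis) in each of the 20 mice by group; right, the percentage of counts on mitochondrially encoded genes, with KO mice numbered as in their labels. Of the KO Tg-SwDI mice, only number 2 has Ttr within the KO Non-Tg range, and number 8 stands apart at 14.6% mitochondrial counts.

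Across 16107 genes tested, 3351 (20.8%) differed between the KO groups at a false discovery rate (FDR) under 0.05 by edgeR's quasi-likelihood test. Higher in KO Tg-SwDI mice were 2013 genes (12.5%) and lower were 1338 (8.31%). The increases were large and the decreases small. Among the former, 564 passed a log2 fold change of 1 and the median was 0.55, whereas 7 of the latter passed -1 and their median was -0.22. The 5 mice of each group did not overlap in 1300 of the higher genes (8.07% of those tested) and 598 of the lower ones (3.71%).

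The count of decreases fell further than that of increases once the choroid plexus level was in the fit. With the choroid plexus score as a covariate 1222 genes were called (7.59%), of which 1065 were higher (6.61% of genes tested) and 157 lower (0.975%). Of the genes higher without the covariate 52.7% were still called, and of the lower ones 11.1%. The score was high in most KO Tg-SwDI mice and in no KO Non-Tg mouse, so the covariate overlaps in part with the contrast. That can widen the errors, and small changes, as most decreases were, then lose the call first. The cause of a lost call was not tested. Mouse 2, set alone against the 5 KO Non-Tg mice, gave 927 higher (5.47%) and 209 lower genes (1.23%), 6.71% of those tested. The change from mouse 2 alone had the sign of the full comparison in 96.3% of the genes called higher and 95.1% of those called lower. Mouse 2 was itself among the mice that gave these calls. Without mouse 8 1904 genes were higher (11.7%) and 1156 lower (7.13%). The split also moved with the scaling: library size alone gave 1675 higher and 1792 lower genes, and removal of the trend on GC content and length gave 1518 higher (9.42%) and 2999 lower (18.6%).

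**Figure D2:**
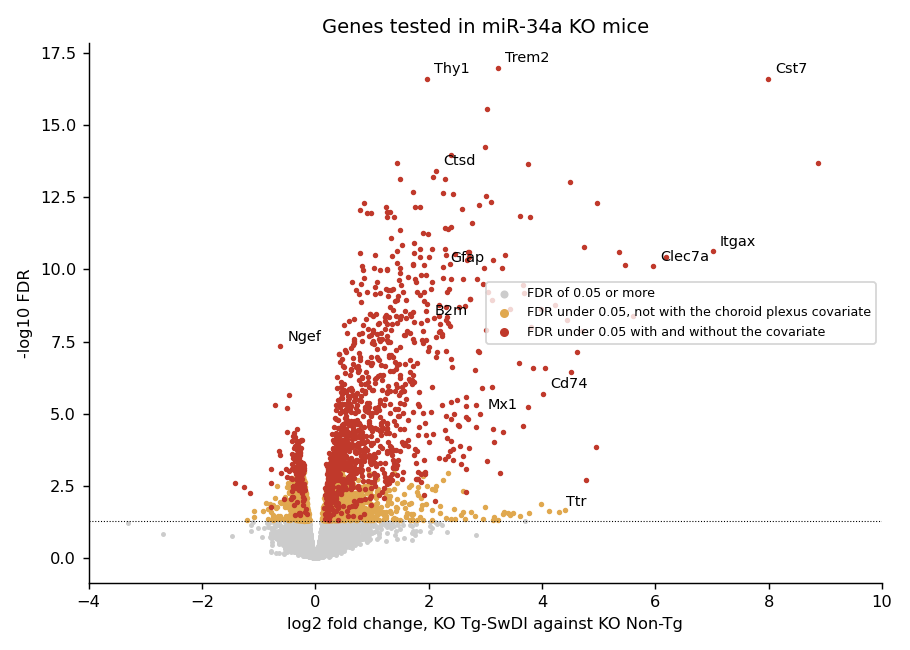
Each point is a gene, by its log2 fold change (KO Tg-SwDI against KO Non-Tg) and the -log10 of its FDR; red genes were also called with the choroid plexus covariate, orange genes only without it, and the dotted line is an FDR of 0.05. Large changes are increases, with Cst7, Itgax and Clec7a farthest to the right among the labelled genes, and Ttr sits near the threshold.

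The 10 largest increases without overlap and at a mean CPM of at least 1 lay at a log2 fold change near 5 or above. Cst7, an inhibitor of lysosomal cysteine proteases, was at 0.383, 0.522, 0.193, 0.528 and 0.387 CPM in the KO Non-Tg mice and 118, 119, 94.4, 81.1 and 107 CPM in the KO Tg-SwDI mice (log2 fold change 7.99 ± 0.19, FDR = 2.4e-17). Itgax, the integrin CD11c, was at 0.670, 0.901, 0.145, 0.240 and 0.629 CPM in the KO Non-Tg mice and 77.3, 77.6, 56.7, 55.5 and 70.7 CPM in the KO Tg-SwDI mice (log2 fold change 7.01 ± 0.32, FDR = 2.3e-11), and Clec7a, the beta-glucan receptor dectin-1, at 0.431, 0.854, 0.531, 0.480 and 0.774 CPM in the KO Non-Tg mice and 45.7, 48.4, 34.99, 28.1 and 35.9 CPM in the KO Tg-SwDI mice (log2 fold change 5.96 ± 0.31, FDR = 7.9e-11). All 5 KO Tg-SwDI mice, including number 2, lay far above all 5 KO Non-Tg mice for each of the 3 genes. Atp6v0d2, a subunit of the vacuolar proton pump, had 1 count over the 5 KO Non-Tg libraries and 718 over the 5 KO Tg-SwDI libraries, and Ctse, the aspartic protease cathepsin E, 3 against 248. The ratio of these counts per library size was 759 for Atp6v0d2 (95% exact interval 136 to 30004) and 87.3 for Ctse (29.5 to 426), intervals that cover counting error only. The other 5 of the 10 largest increases were Cd200r4, an activating relative of the CD200 receptor (log2 fold change 5.6), the chemokine Ccl3 (5.46), Hcar2, the receptor for niacin and beta-hydroxybutyrate (5.35), Pdcd1, the checkpoint receptor PD-1 (4.96), and Cxcl13, a chemokine that attracts B cells (4.95), each at an FDR under 0.05 and without overlap.

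All 30 tested genes of microglia at amyloid deposits rose, with a median log2 fold change of 2.03 against 0.00 over all genes tested, and with Atp6v0d2 set at its lower limit the median was the same. Of these 30, 28 were called with the choroid plexus covariate and 28 from mouse 2 alone. Beside those named above, the list held Gpnmb, a glycoprotein of lipid-laden phagocytes (log2 fold change 3.74 ± 0.13, FDR = 2.3e-14), and Spp1, osteopontin (log2 fold change 3.59 ± 0.31, FDR = 1.8e-07). Apoe, the main lipid carrier of the brain, was at 1346, 1456, 1258, 1329 and 1344 CPM in the KO Non-Tg mice and 2349.8, 2427, 2448, 2252 and 2500.2 CPM in the KO Tg-SwDI mice (log2 fold change 0.83 ± 0.06, FDR = 7.9e-11). The groups did not overlap in 27 of the 30. In whole hippocampus more microglia and more RNA per microglial cell cannot be told apart.

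Homeostatic microglial genes rose as well, by less. All 14 tested members were called higher with a median of 1.14, and all 14 were called with the covariate. Among the larger increases were Fcrls, an Fc receptor-like scavenger protein (log2 fold change 1.91 ± 0.13, FDR = 1.2e-09), and Olfml3, a secreted microglial protein (log2 fold change 1.73 ± 0.11, FDR = 6.6e-11). Csf1r, the receptor on whose signal microglia depend for survival, was at 109, 115, 103, 94.3 and 105 CPM in the KO Non-Tg mice and 277, 307, 272, 267 and 257 CPM in the KO Tg-SwDI mice (log2 fold change 1.39 ± 0.08, FDR = 1.5e-12). P2ry12, the purinergic receptor that guides microglial processes, was at 51.1, 47.2, 54.4, 49.99 and 51.3 CPM in the KO Non-Tg mice and 80.4, 91.4, 74.5, 65.1 and 79.1 CPM in the KO Tg-SwDI mice (log2 fold change 0.62 ± 0.06, FDR = 5.2e-08), and Tmem119, a microglial surface protein, at 25.3, 25.04, 21.9, 25.3 and 23.6 CPM in the KO Non-Tg mice and 42.98, 39.1, 50.5, 38.9 and 32.6 CPM in the KO Tg-SwDI mice (log2 fold change 0.76 ± 0.09, FDR = 2.7e-07). Neither gene overlapped between the groups, and their log2 fold changes were among the smaller ones of the list, which ran from 0.32 to 1.91.

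Receptors, adaptors and transcription factors of the same cells changed in the same direction. Of 21 genes of Fc and ITAM signalling 20 rose (median 1.72). Trem2, the lipid and Abeta receptor of microglia, was at 10.7, 9.58, 10.1, 9.45 and 10.4 CPM in the KO Non-Tg mice and 105, 101, 89.4, 72.2 and 104 CPM in the KO Tg-SwDI mice (log2 fold change 3.23 ± 0.09, FDR = 1.0e-17), and Tyrobp, its signalling adaptor, at 10.5, 10.9, 10.3, 9.88 and 12.04 CPM in the KO Non-Tg mice and 93.9, 92.1, 90.2, 71.4 and 89.9 CPM in the KO Tg-SwDI mice (log2 fold change 3.03 ± 0.10, FDR = 2.8e-16). The 2 genes moved by nearly the same amount, and KO Tg-SwDI mouse 5 was lowest of its group in both. Fcgr2b, the inhibitory Fc gamma receptor, rose by 2.77, while Pirb, an inhibitory receptor of MHC class I, did not pass the test (log2 fold change 0.41, FDR = 0.34). Among 19 transcription factors 14 rose, led by Irf8 (log2 fold change 2.31), Runx1 (2.19), Spi1, which encodes PU.1 (1.66), and Irf5 (1.5). Mef2c, which neurons also express at a high level, was at a log2 fold change of 0.01 (FDR = 0.95).

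Genes of complement, proteolysis and the lysosome followed. Of 19 complement genes 12 rose (median 1.23). C1qa, a chain of the initiating C1q complex, was at 50.3, 53.2, 47.003, 48.3 and 51.9 CPM in the KO Non-Tg mice and 286, 280.1, 306, 217 and 193 CPM in the KO Tg-SwDI mice (log2 fold change 2.35 ± 0.14, FDR = 4.6e-10), and C3ar1, the receptor for C3a, rose by 2.44. Cfp, properdin, did not pass the test (log2 fold change 0.04, FDR = 0.86). Of 17 cathepsins and cystatins 15 rose, among them Ctss (log2 fold change 2.18) and Ctsd, the main aspartic protease of lysosomes, at 213, 232, 212, 223 and 226 CPM in the KO Non-Tg mice and 958, 987, 965, 888 and 1038 CPM in the KO Tg-SwDI mice (log2 fold change 2.13 ± 0.09, FDR = 3.8e-14). Ctsf was at 0.05 (FDR = 0.66).

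Of 34 lysosomal genes 25 rose and 2 fell. Cd68, a lysosomal glycoprotein of phagocytes, was at 10.4, 10.9, 8.73, 8.64 and 9.63 CPM in the KO Non-Tg mice and 79.2, 80.5, 70.4, 68.7 and 116 CPM in the KO Tg-SwDI mice (log2 fold change 3.10 ± 0.13, FDR = 4.7e-13), with the highest value in mouse 8. Slc11a1, a metal transporter of phagosomes, rose by 3.0 and Laptm5, a lysosomal membrane protein of blood-lineage cells, by 2.01. The 2 that fell were subunits of the vacuolar proton pump that neurons express at a high level, Atp6v1b2 (log2 fold change -0.25, FDR = 0.015) and Atp6v1a (-0.15, FDR = 0.039). Neither was called with the choroid plexus covariate or from mouse 2 alone, whereas Atp6v0d2 of the same pump was called in both.

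Lipid genes changed in part. Of 22 genes of lipid handling 13 rose (median 0.39), with Ch25h, which makes 25-hydroxycholesterol, at 0.765, 0.522, 0.579, 0.432 and 0.145 CPM in the KO Non-Tg mice and 5.16, 6.00, 3.77, 2.26 and 2.81 CPM in the KO Tg-SwDI mice (log2 fold change 3.02 ± 0.29, FDR = 1.2e-08). Lpl, lipoprotein lipase, rose by 0.88 and Npc2, which carries cholesterol out of lysosomes, by 1.09. Lrp1, the endocytic receptor for apoE, was at 0.06 (FDR = 0.55). Of 20 genes of cholesterol synthesis 8 rose by small amounts (list median 0.18), including Dhcr7, the last enzyme of the pathway (log2 fold change 0.42 ± 0.09, FDR = 8.0e-04). Hmgcs1, an early enzyme of the same pathway, was at 0.06 (FDR = 0.52). From mouse 2 alone 1 of the 20 was called.

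**Figure D3:**
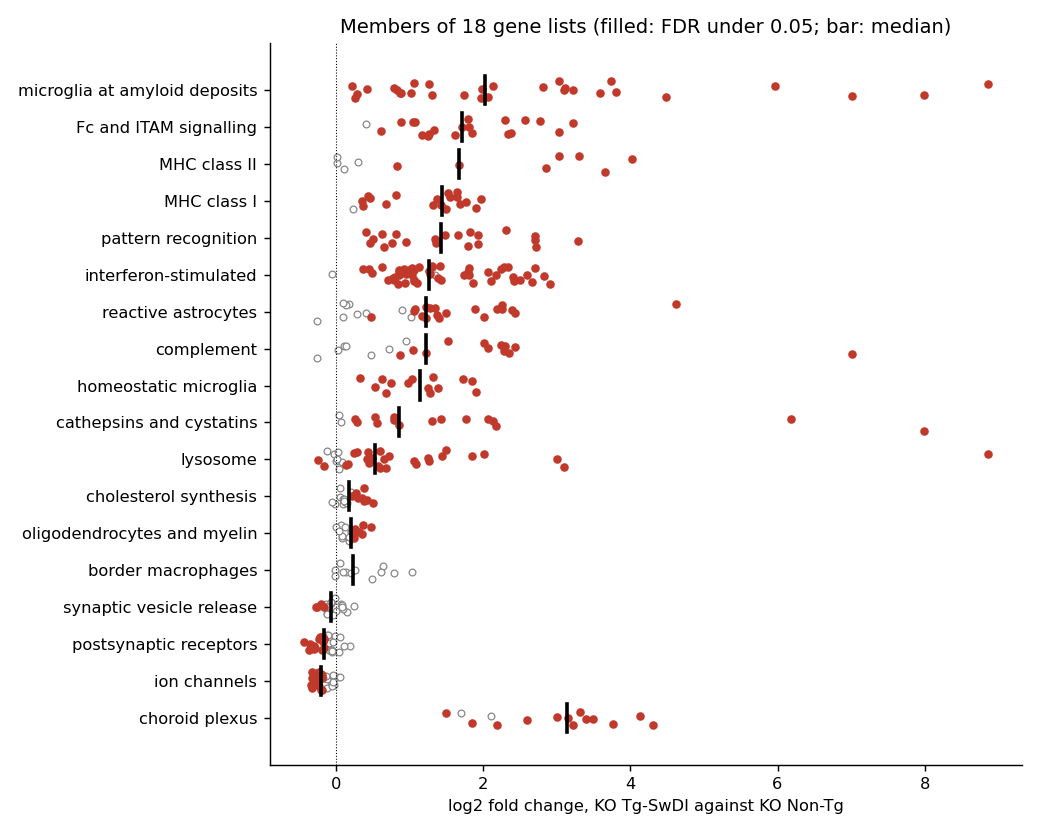
Log2 fold changes (KO Tg-SwDI against KO Non-Tg, horizontal axis) of the members of 18 gene lists; filled points passed an FDR of 0.05, open points did not, and bars are list medians. The lists of phagocytes, antigen presentation and interferon lie to the right, the synaptic and ion channel lists just left of 0, and the choroid plexus list has the highest median.

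Genes of antigen presentation were higher. Of 19 genes of MHC class I and its peptide loading 18 rose, with a median of 1.44. B2m, the light chain shared by class I molecules, was at 117, 100.1, 91.4, 98.9 and 93.1 CPM in the KO Non-Tg mice and 413, 306, 388, 355 and 503 CPM in the KO Tg-SwDI mice (log2 fold change 1.97 ± 0.14, FDR = 5.9e-09), and Nlrc5, the transactivator of class I genes, at 1.72, 1.19, 0.965, 0.672 and 0.919 CPM in the KO Non-Tg mice and 7.43, 2.66, 4.25, 2.46 and 1.82 CPM in the KO Tg-SwDI mice (log2 fold change 1.77 ± 0.33, FDR = 4.9e-04). The heavy chain gene H2-K1 was at 30.1, 31.1, 23.3, 24.9 and 24.04 CPM in the KO Non-Tg mice and 108, 60.5, 97.1, 72.04 and 45.5 CPM in the KO Tg-SwDI mice (log2 fold change 1.52 ± 0.22, FDR = 9.7e-05). B2m was highest in mouse 8, but H2-K1 and Nlrc5 were lowest there among the KO Tg-SwDI mice, and no gene of the 3 overlapped between the groups. H2-K1, H2-D1 and the H2-Q genes are near-identical in part, so that their counts are uncertain. With the covariate 14 of the 19 were called and from mouse 2 alone 10. Psmb10, a subunit of the immunoproteasome, did not pass the test (log2 fold change 0.23, FDR = 0.11).

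Of 11 genes of MHC class II and its regulators 7 rose. Cd74, the invariant chain, was at 9.09, 9.25, 2.61, 3.93 and 3.87 CPM in the KO Non-Tg mice and 144, 51.6, 109.6, 72.6 and 89.6 CPM in the KO Tg-SwDI mice (log2 fold change 4.02 ± 0.42, FDR = 2.0e-06), and H2-Aa, the alpha chain of I-A, at 5.07, 3.65, 1.21, 2.16 and 1.98 CPM in the KO Non-Tg mice and 58.5, 16.6, 43.3, 25.9 and 34.03 CPM in the KO Tg-SwDI mice (log2 fold change 3.66 ± 0.47, FDR = 2.6e-05). Both were lowest in mouse 2 and highest in mouse 1 of the KO Tg-SwDI group, and in both KO Non-Tg mice 1 and 2 were higher than the other 3. The log2 fold change of Cd74 was 3.45 with the covariate and 3.15 from mouse 2 alone. Rfx5, a factor that binds class II promoters, was at 0.10 (FDR = 0.38).

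Interferon-stimulated genes were higher in 4 of the 5 KO Tg-SwDI mice. Of 52 tested members 50 were called higher and none lower, with a median log2 fold change of 1.27, but the groups were separate in 19 of the 52. Mx1, an antiviral GTPase, was at 0.335, 0.427, 0.193, 0.144 and 0.145 CPM in the KO Non-Tg mice and 2.32, 1.72, 2.08, 2.72 and 0.661 CPM in the KO Tg-SwDI mice (log2 fold change 2.91 ± 0.41, FDR = 1.0e-05). Irf7, the factor that amplifies the type I interferon response, was at 3.49, 3.37, 1.40, 1.06 and 1.98 CPM in the KO Non-Tg mice and 16.9, 6.89, 12.999, 13.7 and 3.14 CPM in the KO Tg-SwDI mice (log2 fold change 2.25 ± 0.45, FDR = 0.0019). In both genes mouse 8 was the lowest of the KO Tg-SwDI mice, and for Irf7 it lay within the KO Non-Tg range. Irf7 was not called with the choroid plexus covariate (FDR = 0.052) or from mouse 2 alone (FDR = 0.18), whereas Mx1 was called in both. Ifi204, a DNA-sensing protein of a family with near-identical copies, was at a log2 fold change of 2.83 (FDR = 2.8e-05) and Zbp1, a sensor of Z-form nucleic acid, at 2.71 (FDR = 1.5e-04). The 2 uncalled members were Ifnar1, a chain of the type I interferon receptor (log2 fold change -0.06, FDR = 0.44), and Ifit1 (1.35, FDR = 0.059), which was at 7.94, 14.7, 3.28, 2.49 and 3.82 CPM in the KO Non-Tg mice and 20.3, 10.7, 21.2, 24.8 and 5.29 CPM in the KO Tg-SwDI mice.

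The same unevenness was seen over the list. Its mean log2 CPM relative to the KO Non-Tg mean was 0.32, 0.47, -0.19, -0.35 and -0.25 in the KO Non-Tg mice and 1.84, 1.23, 1.62, 1.56 and 0.42 in the KO Tg-SwDI mice. KO Tg-SwDI mouse 8 therefore lay below KO Non-Tg mouse 2, the other 4 KO Tg-SwDI mice lay above every KO Non-Tg mouse, and KO Non-Tg mice 1 and 2 lay above the other 3. The list of microglia at amyloid deposits did not have this pattern, with 2.65, 2.64, 2.49, 2.29 and 2.52 in the KO Tg-SwDI mice. Fibroblast and matrix genes, a sign of meningeal tissue, were also higher in KO Non-Tg mice 1 and 2, at 0.46, 0.46, -0.30, -0.32 and -0.31 in the KO Non-Tg and 0.12, -0.33, 0.57, 0.12 and 0.17 in the KO Tg-SwDI mice, and their part in the interferon values was not tested. Without mouse 8 51 of the 52 were called, with the choroid plexus covariate 37, and from mouse 2 alone, whose choroid plexus level was that of the KO Non-Tg mice, 28 (list median 0.98).

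**Figure D4:**
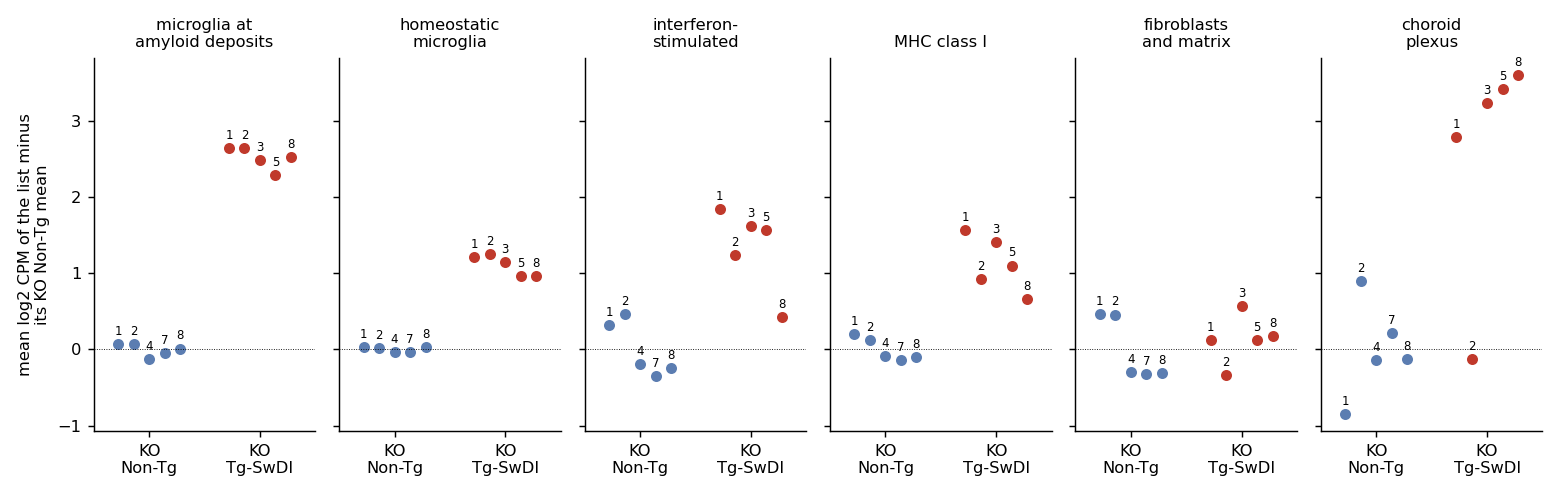
Mean log2 CPM of 6 gene lists in each KO mouse, relative to the KO Non-Tg mean of the list (vertical axis); numbers are those of the mice. Genes of microglia at amyloid deposits and homeostatic genes are separate in all mice, mouse 8 has an interferon-stimulated level within the KO Non-Tg range, and mouse 2 a choroid plexus level within it.

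Many promoters of the interferon list held the interferon-stimulated response element. This depends on which genes are in the list and not on their levels in these mice, so it does not test their response. The interferon-stimulated response element, searched as a pair of GAAA with 2 bases of any kind between them, on both strands and from 250 bases before to 50 after the gene start (RefSeq, GRCm38.p6), was found in 21 of the 39 members with a promoter in the table (53.8%). It was found in 3.68% of 12054 tested genes with one, in 11.7% of those higher by a log2 above 1, in 3.73% of those lower, and in 5 of 17 MHC class I genes. The genes higher by a log2 above 1 include members of the interferon list. These are matches of letters, not binding sites. Windows of 30 bases around the match are shown for 4 called members, of which Oas1a and Bst2 were called under every alternative and Isg15 and Ifit3 neither with the choroid plexus covariate nor from mouse 2 alone, with the motif in capitals and the gene's own strand read 5′ to 3′. Isg15, a ubiquitin-like modifier (log2 fold change 1.81), has its window at chr4:156200877-156200906, and Oas1a, which makes 2′-5′ oligoadenylate (2.18), at chr5:120907526-120907555. Bst2, tetherin (2.43), has it at chr8:71537583-71537612, and Ifit3 (1.43), where the motif reads on the opposite strand, at chr19:34583363-34583392. Capitals mark the first match found. In Isg15, Oas1a and Bst2 a second match overlaps the end of the first and runs into the lower-case bases.
Isg15: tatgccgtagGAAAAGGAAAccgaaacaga
Oas1a: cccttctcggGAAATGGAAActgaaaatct
Bst2: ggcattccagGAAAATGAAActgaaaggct
Ifit3: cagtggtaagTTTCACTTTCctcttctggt

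Of 23 chemokines, cytokines and growth factors 17 rose (median 1.64). Ccl3 was at 0.335, 0.190, 0.290, 0.288 and 0.339 CPM in the KO Non-Tg mice and 12.9, 17.1, 9.33, 7.69 and 17.8 CPM in the KO Tg-SwDI mice and Ccl4, its close relative, at 0.0478, 0.142, 0.0965, 0.0959 and 0 CPM in the KO Non-Tg mice and 2.46, 3.29, 1.30, 1.03 and 1.27 CPM in the KO Tg-SwDI mice. Mouse 2, whose Ttr was low, had the highest Ccl4 and the second highest Ccl3 of its group. Cxcl9, a chemokine induced by interferon gamma, had 3 counts over the KO Non-Tg libraries and 95 over the KO Tg-SwDI libraries (ratio 33.5, 95% exact interval 11.1 to 165). Cxcl13 was at 0.0478, 0.190, 0.145, 0.0480 and 0.0484 CPM in the KO Non-Tg mice and 4.73, 1.41, 2.95, 6.15 and 0.385 CPM in the KO Tg-SwDI mice, with the lowest KO Tg-SwDI value, as for Cxcl9, in mouse 8. Cx3cl1, the neuronal ligand of the microglial receptor CX3CR1, did not pass the test (log2 fold change -0.05, FDR = 0.63). All 22 tested genes of pattern recognition rose, led by the Toll-like receptor gene Tlr2 (log2 fold change 3.29 ± 0.22, FDR = 9.3e-11), Cd180 (2.72) and the co-receptor Cd14 (2.70).

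Markers of other immune cells were sparse. Of 20 genes of T cells, NK cells and checkpoints 13 had too few counts to test, among them Cd3e and Cd8a. Of the 7 tested 6 rose, including Pdcd1 at 0.144, 0.142, 0.0965, 0.144 and 0.145 CPM in the KO Non-Tg mice and 5.40, 5.17, 4.11, 3.69 and 3.47 CPM in the KO Tg-SwDI mice (log2 fold change 4.96 ± 0.27, FDR = 5.1e-13), Lag3 (log2 fold change 3.04 ± 0.19, FDR = 6.2e-10) and the ligand gene Cd274 (log2 fold change 1.48 ± 0.19, FDR = 2.3e-06). Microglia can express Lag3 and Cd274 too. Of the T cell receptor genes tested, Trac, the constant region of the alpha chain, was called at a low level, with 1.005, 1.04, 0.434, 0.768 and 0.822 CPM in the KO Non-Tg mice and 1.18, 1.15, 1.45, 1.49 and 1.98 CPM in the KO Tg-SwDI mice (log2 fold change 0.82 ± 0.26, FDR = 0.025), and lost the call with the choroid plexus covariate (FDR = 0.16), from mouse 2 alone (FDR = 0.68) and without mouse 8 (FDR = 0.071). Trbc2, that of the beta chain, was the 1 that did not pass (log2 fold change 0.05, FDR = 0.94). None of 12 genes of border macrophages was called (median 0.23), and Mrc1, the mannose receptor of these cells, was at 7.61, 5.79, 3.47, 4.22 and 3.10 CPM in the KO Non-Tg mice and 5.25, 3.55, 7.44, 5.38 and 4.90 CPM in the KO Tg-SwDI mice. Of 18 genes of the cell cycle 8 rose, including Cdk1 (log2 fold change 1.79 ± 0.40, FDR = 0.0019), and Pcna was at 0.02 (FDR = 0.88). Of the 18, 4 were called without mouse 8, 3 with the covariate and 1 from mouse 2 alone, where Cdk1 was not called (FDR = 0.094).

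Astrocyte genes were divided between those of reactivity and those of identity. Of 28 genes of reactive astrocytes 19 rose (median 1.22). Gfap, the intermediate filament of astrocytes, was at 346, 379, 353, 354 and 353 CPM in the KO Non-Tg mice and 1531, 1771, 2252, 1227 and 1752 CPM in the KO Tg-SwDI mice (log2 fold change 2.26 ± 0.13, FDR = 8.3e-11), and Serpina3n, a secreted protease inhibitor, at 46.8, 51.9, 52.7, 49.7 and 51.4 CPM in the KO Non-Tg mice and 204, 254, 339.8, 163 and 249.9 CPM in the KO Tg-SwDI mice (log2 fold change 2.26 ± 0.13, FDR = 2.0e-10). Mouse 3 was highest and mouse 5 lowest of the KO Tg-SwDI mice in both, and neither overlapped. Lcn2, lipocalin 2, was below 1 CPM in every KO Non-Tg mouse and rose (log2 fold change 2.43 ± 0.45, FDR = 4.0e-04), and Cp, ceruloplasmin, did not pass the test (log2 fold change 0.29, FDR = 0.46). Of 16 identity genes 7 rose (median 0.19), with the water channel gene Aqp4 at 210.3, 173, 182, 194 and 178 CPM in the KO Non-Tg mice and 326, 354, 457, 283 and 286 CPM in the KO Tg-SwDI mice (log2 fold change 0.87 ± 0.12, FDR = 2.8e-05). Slc1a2, the main glutamate transporter, was at 0.08 (FDR = 0.32).

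Changes in the oligodendrocyte lineage and vessels were smaller. Of 18 genes of oligodendrocytes and myelin 7 rose (median 0.21), including Cldn11, a tight junction protein of myelin (log2 fold change 0.48 ± 0.07, FDR = 2.9e-05), Mag, myelin-associated glycoprotein (log2 fold change 0.36 ± 0.07, FDR = 3.6e-04), and Mbp, myelin basic protein (log2 fold change 0.31 ± 0.06, FDR = 5.8e-04). Of 12 genes of precursors and premyelinating cells 4 rose, with Enpp6 at 0.48. Of 19 endothelial genes 4 rose (21.1%, against 12.5% of all genes tested). They included the adhesion molecules Icam1 (log2 fold change 1.32 ± 0.17, FDR = 1.7e-06) and Vcam1 (log2 fold change 0.68 ± 0.19, FDR = 0.017). The transporter gene Slco1a4 was at 0.10 (FDR = 0.43). With the covariate Icam1 was the 1 endothelial gene still called. Icam1 is also expressed by microglia. Of 12 genes of pericytes and vascular smooth muscle 2 rose (16.7%, near the 12.5% of all genes tested). Of 21 genes of fibroblasts and matrix 0 were called.

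Neuronal genes fell in part and by small amounts. Of 33 voltage-gated ion channel genes 19 fell (median -0.21), of 33 genes of postsynaptic receptors and scaffolds 15 fell (median -0.16), of 22 genes of synaptic vesicle release 4 fell (median -0.07) and of 22 genes of hippocampal fields 4 fell (median -0.06). In this order the shares that fell were 57.6%, 45.5%, 18.2% and 18.2%, against 8.31% of all genes tested. No member of these 4 lists rose. Grm5, a metabotropic glutamate receptor, was at 328, 319, 354, 339 and 352 CPM in the KO Non-Tg mice and 250.1, 307, 261, 273 and 224 CPM in the KO Tg-SwDI mice (log2 fold change -0.36 ± 0.06, FDR = 6.6e-05). Gabrb2, a subunit of the GABA-A receptor, was at 101, 87.96, 115, 96.6 and 116 CPM in the KO Non-Tg mice and 70.8, 85.8, 71.5, 83.3 and 71.7 CPM in the KO Tg-SwDI mice (log2 fold change -0.43 ± 0.10, FDR = 0.0034), and the sodium channel gene Scn1a at 121, 111, 135, 130.3 and 133 CPM in the KO Non-Tg mice and 109, 104, 89.2, 103 and 102 CPM in the KO Tg-SwDI mice (log2 fold change -0.32 ± 0.07, FDR = 0.0011). None of the 3 overlapped, and mouse 2 lay nearest to the KO Non-Tg mice in Grm5 and Gabrb2. Sv2b, a vesicle protein, fell to a log2 fold change of -0.27 and Syt1, the calcium sensor of release, to -0.26. Camk2a, an abundant postsynaptic kinase, was at 0.06 (FDR = 0.64), and Slc17a7, the vesicular glutamate transporter, at 0.09 (FDR = 0.41). In both genes KO Tg-SwDI mouse 8, the library with the raised mitochondrial share, lay above every other KO mouse.

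Few of these decreases were called once the choroid plexus level was in the fit. With the covariate 5 ion channel genes, 3 postsynaptic genes and none of the presynaptic or hippocampal field genes were called lower. The list medians with the covariate were -0.14 for ion channels, -0.08 for postsynaptic, -0.01 for presynaptic and -0.06 for hippocampal field genes. When mouse 8 was left out, 22 ion channel, 18 postsynaptic, 6 presynaptic and 4 hippocampal field genes were lower. From mouse 2 alone the median was 0.06 for hippocampal field genes, 13 of 22 of which were above 0, and -0.14 for presynaptic genes. The medians were then -0.13 for ion channels and -0.13 for postsynaptic genes. Removal of the trend on GC content and length gave 22 lower ion channel genes and 13 lower postsynaptic genes. Across genes the log2 fold change had a Spearman rho of 0.21 with GC content and -0.21 with exonic length, a description over genes that share these libraries. The part of the choroid plexus tissue in these values was not tested.

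Among the 10 largest decreases without overlap and at a mean CPM of at least 1 were genes of neuropeptide signalling. Before these conditions 7 called decreases passed a log2 fold change of -1, all of them outside the gene lists. Adcyap1, the peptide PACAP, was at 8.37, 8.77, 9.31, 11.7 and 8.03 CPM in the KO Non-Tg mice and 5.30, 4.75, 6.91, 6.00 and 6.72 CPM in the KO Tg-SwDI mice (log2 fold change -0.64 ± 0.11, FDR = 2.0e-04). Pcsk1, a protease that matures peptide hormones, was at 19.1, 15.9, 18.6, 18.998 and 21.5 CPM in the KO Non-Tg mice and 11.7, 9.97, 11.1, 14.8 and 10.2 CPM in the KO Tg-SwDI mice (log2 fold change -0.70 ± 0.10, FDR = 4.9e-06), and Npbwr1, a receptor for neuropeptides B and W, at 2.77, 2.51, 2.17, 2.78 and 3.39 CPM in the KO Non-Tg mice and 1.85, 1.20, 1.11, 1.85 and 1.93 CPM in the KO Tg-SwDI mice (log2 fold change -0.78 ± 0.18, FDR = 0.0024). No mouse of one group entered the range of the other in these 3 genes, and mouse 2 was the lowest or second lowest KO Tg-SwDI mouse in each. Ngef, a guanine nucleotide exchange factor downstream of EphA receptors, was at 116, 102, 112, 108 and 112 CPM in the KO Non-Tg mice and 74.9, 66.9, 74.3, 77.99 and 64.5 CPM in the KO Tg-SwDI mice (log2 fold change -0.62 ± 0.06, FDR = 4.5e-08) and had the smallest FDR of the decreases named. With the covariate the log2 fold changes were -0.65 for Adcyap1, -0.69 for Pcsk1, -0.70 for Npbwr1 and -0.57 for Ngef, all still called.

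The other members of the 10 largest decreases called with the covariate were Ndst4, a heparan sulfate sulfotransferase (log2 fold change -0.62), Cdh6, a cadherin (-0.60), Tmem74 (-0.52), which takes part in autophagy, and the gene models Gm43951 (-0.79), Gm16907 (-0.77) and Gm16702 (-0.51). Called only without the covariate were Mterf1b, Frem3, Pm20d2, the pseudogene Sms-ps and the orphan receptor gene Gpr101, from -0.65 to -0.79. Of 24 neuropeptide and granin genes 5 fell (20.8%, against 8.31% of all genes tested) and 2 rose (8.33%, against 12.5%). Library size alone gave 9 lower and 1 higher, removal of the trend on GC content and length 13 lower and 0 higher, and the covariate 1 of each. The largest of these decreases was in Cort, cortistatin (log2 fold change -0.87 ± 0.24, FDR = 0.012), which overlapped between the groups, and Nts, neurotensin, was at -0.60 (FDR = 0.013). Neither was called with the covariate (FDR = 0.068 and 0.099) or from mouse 2 alone. Penk, proenkephalin, rose by 0.51 (FDR = 0.047) and was at -0.22 from mouse 2 alone, and Scg3, secretogranin 3, rose by 0.22. Of 17 interneuron genes 3 fell (17.6%).

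Genes linked to the deletion and the transgene were examined by list. Of all genes tested 12.5% rose and 8.31% fell. Of 25 often cited targets of miR-34a 7 rose (28%) and 1 fell (4%), with a median of 0.16. Both groups lacked miR-34a, so that this contrast does not compare its presence with its absence, and the interaction was called for 3 of the 25. The 4 largest increases were Trem2, Nlrc5, Csf1r and Cd44, a hyaluronan receptor (log2 fold change 1.22 ± 0.11, FDR = 4.6e-09), of which the first 3 are genes of microglia or antigen presentation counted above. Notch1 was at 0.15 (FDR = 0.12) and Sirt1 at -0.05 (FDR = 0.63). Of 19 genes of APP processing 4 rose (21.1%) and 3 fell (15.8%), shares not far from those of all genes for so small a list. The gamma-secretase subunits Psenen and Ncstn were at 0.30 (FDR = 0.0013) and 0.26 (FDR = 4.9e-04). With the covariate 3 rose and 0 fell, and when mouse 8 was left out 6 rose and 1 fell. Psenen lost the call with the covariate (FDR = 0.055) and from mouse 2 alone, and Ncstn from mouse 2 alone (FDR = 0.23). Of 12 tested genes of iron and haem 7 rose, including Hmox1, haem oxygenase 1 (log2 fold change 1.08 ± 0.11, FDR = 1.7e-08), and Trf, transferrin (log2 fold change 0.87 ± 0.12, FDR = 6.7e-06).

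Stress, clock and mitochondrial genes were also counted. Of all genes tested 12.5% rose and 8.31% fell. The shares of stress genes (15% rose) and of nuclear respiratory chain genes (13.3% rose, 10% fell) lay near these. Of the clock genes 20% rose and 13.3% fell, of the immediate early genes 4.76% fell, and of the mitochondrially encoded genes 23.1% rose. Of 20 stress genes 3 rose: Atf3, a stress-induced transcription factor, at 0.861, 1.23, 0.820, 1.10 and 0.774 CPM in the KO Non-Tg mice and 3.79, 2.92, 3.48, 2.97 and 2.81 CPM in the KO Tg-SwDI mice (log2 fold change 1.73 ± 0.18, FDR = 3.4e-08), and the metallothioneins Mt2 (0.99) and Mt1 (0.99). Of 15 clock genes 3 rose and 2 fell, among them Bhlhe41, a repressor of the clock that microglia also express (log2 fold change 0.47 ± 0.05, FDR = 1.3e-07), and Ciart (log2 fold change 0.40 ± 0.08, FDR = 0.0013). Of 21 immediate early genes 1 fell, Fosl2 (log2 fold change -0.28 ± 0.09, FDR = 0.028), and Arc was at 0.13 (FDR = 0.80). Of 30 nuclear genes of the respiratory chain 4 rose and 3 fell, and with the covariate none was called. Removal of the trend on GC content and length gave 18 of the 30 lower and 0 higher (median -0.18), where 18.6% of all genes were lower. Of 13 mitochondrially encoded genes 3 rose, with mt-Nd4 at 7191, 6809, 7500.3, 7367 and 7751 CPM in the KO Non-Tg mice and 8405, 7831, 8265, 9253 and 17320.4 CPM in the KO Tg-SwDI mice (log2 fold change 0.48 ± 0.16, FDR = 0.047), the highest value being that of mouse 8. Without mouse 8 its log2 fold change was 0.21 (FDR = 0.035).

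Markers of tissue outside the hippocampus were counted with the same test. Of 15 choroid plexus genes 13 rose, with a median of 3.15. Folr1, the folate receptor of the plexus, was at 0.670, 2.99, 0.676, 1.97 and 1.16 CPM in the KO Non-Tg mice and 12.6, 1.30, 17.01, 22.05 and 21.6 CPM in the KO Tg-SwDI mice (log2 fold change 3.31 ± 1.01, FDR = 0.029), and mouse 2 lay within the KO Non-Tg range. Otx2, a transcription factor of the plexus, was at 1.70 (FDR = 0.077). From mouse 2 alone 0 of the 15 were called (median -0.21), and without mouse 8 5. Of 8 ependymal genes 2 rose, neither called with the covariate. Of 8 striatal genes 2 rose, Adora2a (0.82) and Ppp1r1b (0.53), likewise not called with it. Both shares were 25%, against 12.5% of all genes tested. None of the 4 red blood cell genes, 8 thalamic genes or 8 neocortical genes tested was called. From mouse 2 alone 3 neocortical genes (median -0.50, 0 of 8 above 0) and 2 thalamic genes were lower and 1 thalamic gene higher, and when mouse 8 was left out 2 neocortical genes were lower and 1 thalamic gene was higher.

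The study also asked whether the response depends on miR-34a. In WT mice 710 genes (4.41%) differed between Tg-SwDI and Non-Tg, 635 higher and 75 lower. The difference between the 2 responses, tested as an interaction, was called in 98 genes (0.608%), and 97 of these were among those called in KO mice. Calls of one genotype that the other lacks were therefore mostly not shown to differ. Choroid plexus level is part of this comparison as well, since WT Non-Tg mice had Ttr from 29.8 to 3898 CPM and with the covariate 31 genes were called for the interaction. The count also hung on single mice, from 14 without KO Non-Tg mouse 7 to 500 without KO Tg-SwDI mouse 2, the library with low Ttr, and was 209 without KO Tg-SwDI mouse 8. Thy1, whose promoter drives the transgene, was at 2454 to 3318 CPM in KO and 1905 to 2328 CPM in WT Tg-SwDI mice, without overlap. In Non-Tg mice it was at 689 to 744 CPM (KO) and 685 to 769 CPM (WT). The part of this Thy1 difference in the interaction was not tested.

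Microglial genes made up several of the differences. Of the 30 genes of microglia at amyloid deposits 7 had a larger increase in KO than in WT mice by this test, as did 7 of 34 lysosomal genes and 2 of 14 homeostatic genes. Trem2 rose by 3.23 and 2.45 (difference 0.78 ± 0.13, FDR = 0.015), Tyrobp by 3.03 and 2.29 (FDR = 0.02) and Cd68 by 3.10 and 2.13 (FDR = 0.02). Csf1r rose by 1.39 and 0.84 (FDR = 0.02), whereas for Cst7, at 7.99 and 7.04, the difference was not called (FDR = 0.26). Of the 22 named genes whose difference was called, 12 were called with the choroid plexus covariate and 5, Trem2, Slc11a1, Ctsd, Ciart and Myef2, under every alternative tried.

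The 5 largest positive differences among genes called in KO mice were Clec7a (difference 2.14 ± 0.47, FDR = 0.046), which lost the call when any of 13 of the 20 mice was left out, H2-Oa, a modulator of class II peptide loading (difference 1.68, FDR = 0.02), Gpr84, a receptor for medium-chain fatty acids (1.59, FDR = 0.02), the phosphatase gene Ptpn18 (1.36, FDR = 0.02) and Trim30d (1.27, FDR = 0.022). The 5 largest negative ones were Olfm3 (-0.46, FDR = 0.026), a secreted olfactomedin of neurons, Klhl3 (-0.45, FDR = 0.04), a substrate adaptor of a ubiquitin ligase, Myef2 (-0.45, FDR = 0.016), Fam214a (-0.41, FDR = 0.04) and the NMDA receptor subunit gene Grin2a (-0.41, FDR = 0.02). Of these 10 genes H2-Oa, Gpr84, Myef2 and Grin2a were also called with the covariate. Grin2a was lower in KO Tg-SwDI mice (log2 fold change -0.28 ± 0.06, FDR = 5.6e-04) and at 0.13 in WT mice (FDR = 0.26).

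For interferon-stimulated genes the counts of calls of the 2 genotypes lay far apart, but the interaction was rarely called. Of the 52 members 50 were called in KO and 2 in WT mice, with medians of 1.27 and 0.31, and the interaction was called for 1. Mx1 was at 2.91 in KO and 0.35 in WT mice (difference 2.55 ± 0.63, FDR = 0.056), and Irf7 at 2.25 and 0.45 (FDR = 0.18). Of 19 MHC class I genes 18 were called in KO and 3 in WT mice and 2 in the interaction, among them B2m (1.97 and 0.92, difference 1.06 ± 0.19, FDR = 0.02).

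**Figure D5:**
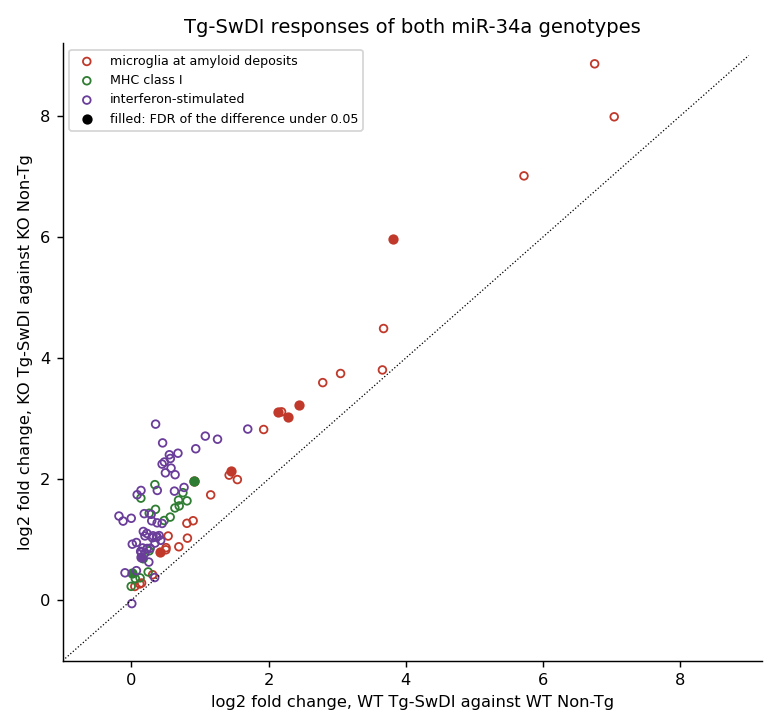
Log2 fold change of Tg-SwDI against Non-Tg in KO mice (vertical) and in WT mice (horizontal) for members of 3 lists, each point a gene; filled points passed an FDR of 0.05 for the difference between the responses, and the dotted line marks equal responses. Most points lie above the line, and Clec7a is the filled point farthest from it.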

How the data were processed

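RNA of the left hippocampus of 20 mice, 1 library each, was sequenced by the authors, with STAR as the aligner, featureCounts as the counter and mm10 as the genome. The values the authors deposited are raw counts per ENSEMBL gene. The strand setting and how multi-mapping reads were handled are not given in the sources used here. Mice were grouped by the labels alone. P-values measure the spread between separate mice, except that the fit from mouse 2 alone has no spread within KO Tg-SwDI mice.

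Symbols came from GENCODE M21 (38872 of 39056 identifiers matched). Genes were kept by filterByExpr (minimum count 10, minimum total 15; 16107 genes), normalized by TMM and fitted in 1 model of 4 group means with edgeR 4.0.16 (quasi-likelihood, robust, 16 residual degrees of freedom) in R 4.3.3 with limma 3.58.1. P-values were adjusted by the Benjamini-Hochberg method and an FDR under 0.05 was called. Errors beside log2 fold changes are standard errors. List levels are mean log2 CPM (prior count 2). DESeq2 1.42.0 was an alternative. The code was tested on simulated counts. Sampling error is widest for weakly expressed genes.

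Genes named were the 10 largest increases and decreases (FDR under 0.05, no overlap, mean CPM of at least 1), the 10 largest decreases also called with the choroid plexus covariate, the 5 largest interactions of each sign, the leading and most abundant uncalled members of 44 lists, and label checks. Some, such as P2ry12, Tmem119, Apoe, Gpnmb, Spp1, Gfap, Irf7, H2-K1, Trac, Mrc1, Notch1, Sirt1 and the 4 promoters shown, were chosen after their values were seen. Results of a few genes are not reported here. Members and lists were chosen with earlier results of these data known. The alternatives, with 4 added after the data were seen, are given at the end.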

Additional observations from a re-analysis of the deposited data

Results flagged for a closer look

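Single mice stood apart from the other 4 of their group in several of the measures named above. The gap between such a mouse and its nearest neighbour was over 0.71 of the range of its group. Chance alone gives such a gap in about 1 group in 20. Both groups were examined for each of the 156 genes named and tested. Chance alone can therefore give about as many gaps in genes as are listed here, and a gap in a single gene is not read as a trait of its mouse. In the KO Tg-SwDI group mouse 8 stood apart in the share of mitochondrial counts, at 14.6%, in mt-Nd4 at 17320.4 CPM and in Mt3 at 493 CPM. The same mouse was highest in Cd68 at 116 CPM and in Spi1 at 18.4 CPM. Mouse 5 was lowest in C3ar1 at 9.18 CPM and in Tyrobp at 71.4 CPM. Mouse 2 was highest in Grin2a at 326 CPM and lowest in Ppp1r1b at 53.9 CPM, and mouse 1 was highest in Trbc2 at 1.75 CPM.

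In the KO Non-Tg group mouse 1 was lowest in Mbp at 2543 CPM, Hmox1 at 4.64 CPM and Ppp1r1b at 44.1 CPM. Mouse 2 was highest in Gfap at 379 CPM and mouse 8 in Trbc2 at 1.26 CPM. Mouse 4 was highest in Pm20d2 at 5.07 CPM, lowest in Pdcd1 at 0.0965 CPM, and the 1 mouse of its group with an Atp6v0d2 count, at 0.0483 CPM. The Pdcd1 and Atp6v0d2 values rest on very few counts.

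The Tg-SwDI responses of KO and WT mice differed by the interaction test (FDR under 0.05) in 22 of the genes named, of which 15 lost the call when some single mouse was left out. This happened for 15 choices of mouse for Psenen, 13 for Clec7a and Klhl3, 11 for Irf5 and Fam214a, 9 for Grm5, 8 for Olfm3, 7 for Cd44 and 4 or fewer for the others. The increase was larger in KO mice by a log2 of 2.14 for Clec7a, 1.68 for H2-Oa, 1.59 for Gpr84, 1.36 for Ptpn18, 1.27 for Trim30d, 1.06 for B2m and 1.02 for Slc11a1. It was larger by 0.97 for Cd68, 0.78 for Trem2, 0.74 for Cd44, 0.74 for Tyrobp, 0.70 for Irf5, 0.67 for Ctsd, 0.56 for Csf1r and 0.39 for Psenen. For Ciart, a clock gene that was called higher in KO (0.40) and lower in WT Tg-SwDI mice (-0.31), the difference was 0.70. The difference was negative for Olfm3 (-0.46), Klhl3 (-0.45), Myef2 (-0.45), Fam214a (-0.41), Grin2a (-0.41) and Grm5 (-0.38).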

How the results depend on the processing

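The count of genes called in KO mice stayed within 1.5 times of 3351 under DESeq2 (3617), the exactTest (3214), RLE factors (3395), library size alone (3467), no filter (2783), a mean CPM of at least 1 (3135), the 10 KO mice alone (2435), removal of the trend on GC content and length (4517) and each mouse left out (2495 to 3735). It moved to 1222 (1065 higher, 157 lower) with the choroid plexus covariate, to 1187 (1040 and 147) with Ttr as covariate, to 1136 (927 and 209) with KO Tg-SwDI mouse 2 as the lone Tg-SwDI library, assumed to vary like the other groups, and to 1491 (1240 and 251) with the covariate and without mouse 8. The cause was not tested. The lower genes alone moved to 780 in the 10 mice alone, 2999 with the GC trend removed, 853 with the mitochondrial share as covariate and 862 to 1420 with a mouse left out, the lowest without KO Non-Tg mouse 8. 4 alternatives (mouse 2 alone, the covariate without mouse 8, mitochondrial genes left out and their share as covariate) were added after the data were seen.

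Interaction calls numbered 98, and 482 with DESeq2, 59 with library size alone, 38 with a replicate block, 32 with the GC trend removed, 31 with the choroid plexus and 13 with the Ttr covariate, and 14 to 500 with a mouse left out. The count was 14 without KO Non-Tg mouse 7, 43 without KO Non-Tg 4, 51 without KO Non-Tg 8, 151 without KO Tg-SwDI 1, 500 without KO Tg-SwDI 2, 64 without KO Tg-SwDI 3 and 209 without KO Tg-SwDI 8. It was 26 without WT Non-Tg mouse 2, 170 without WT Non-Tg 3, 36 without WT Non-Tg 4, 46 without WT Tg-SwDI 3, 64 without WT Tg-SwDI 5 and 31 without WT Tg-SwDI 7. The cause was not tested. Replicate numbers 1, 2 and 8 occur in both KO groups, but same-numbered mice did not deviate together (correlations over genes of 0.05, -0.10 and 0.00), so the numbers were not taken as pairs. With the replicate block 2538 genes were called in KO mice. The choroid plexus difference was 2.33 to 3.26 with a mouse left out. Of 130 named genes called in KO mice, 86 kept the call under every alternative, 25 lost it with the covariate and 11 with the block. Leaving out 1 of the 20 mice ended the call of 11 of them (FDR up to 0.12): Penk for 16 choices of mouse, Mt3 and mt-Nd4 for 15, Gpr101 for 9, Atp6v1a for 8, Folr1 and Fosl2 for 6, Ttr and Fam214a for 4, Trac for 3 and Sms-ps for 1. From mouse 2 alone Folr1 (-0.21), Ttr (-0.58) and Penk (-0.22) changed sign. Depth limits genes with few counts, such as Cxcl9 and Ctse.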

Other observations

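372 of the 564 genes higher by a log2 above 1 in KO Tg-SwDI mice were in none of the 44 lists. Several of those farthest from 0 encode proteins of blood-lineage cells, picked here after their values were seen. Fgr, a Src family kinase of myeloid cells, was at 0, 0.285, 0.193, 0.0480 and 0.0967 CPM in the KO Non-Tg mice and 3.22, 3.34, 2.61, 1.44 and 3.63 CPM in the KO Tg-SwDI mice (log2 fold change 4.45 ± 0.41, FDR = 5.8e-09). Cd52, a small surface glycoprotein of leukocytes, was at 2.15, 0.948, 1.83, 1.44 and 1.60 CPM in the KO Non-Tg mice and 22.7, 18.6, 20.1, 16.05 and 23.6 CPM in the KO Tg-SwDI mice (log2 fold change 3.66 ± 0.24, FDR = 3.6e-10), and Mpeg1, perforin-2 of phagocytes, at 32.3, 32.9, 38.2, 31.04 and 36.7 CPM in the KO Non-Tg mice and 200.1, 220.2, 169.8, 150.5 and 155 CPM in the KO Tg-SwDI mice (log2 fold change 2.39 ± 0.11, FDR = 3.3e-12). The groups did not overlap in any of the 3, and mouse 2 lay with the other KO Tg-SwDI mice. The protease gene St14, matriptase, rose by 3.61, and the sialic acid receptor genes Siglecf by 3.14 and Cd22 by 3.34. Sfrp5, a secreted inhibitor of Wnt signalling, was at 0.622, 0.901, 0.965, 0.816 and 0.629 CPM in the KO Non-Tg mice and 5.02, 4.59, 9.18, 7.13 and 8.81 CPM in the KO Tg-SwDI mice (log2 fold change 3.13 ± 0.43, FDR = 3.5e-05).

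In KO Tg-SwDI mouse 8 the raised mitochondrial share came with other levels outside the range of the other 9 KO mice. Slc17a7 was at 2062 CPM, against 1369 to 1586 CPM in the other 9, and Camk2a at 5960.0 against 3956 to 4821 CPM. Mt3, the neuronal metallothionein, was at 493 CPM against 153 to 219.8 CPM. Irf7 was at 3.14 CPM in this mouse, against 6.89 to 16.9 CPM in the other 4 KO Tg-SwDI mice. Whether RNA quality and the interferon level of this mouse are linked was not tested.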
